A study of Mus musculus with 10 samples.

Results

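The piRNA pathway genes described here are *Piwil1*, *Piwil2*, *Piwil4*, *Mov10l1*, *Asz1*, *Tdrd1*, *Tdrd6*, *Tdrd9*, *Mael* and *Ddx4*. They were taken by gene symbol from the deposited expression tables of the *Rnf20* study, and all 10 were present among the 17816 genes of the day 7 table and among the 20007 genes of the adult testis table. The levels of all 10 genes were compared between the *Rnf20* conditional knockout and control samples of each table.

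The piRNAs are small RNAs of the germ line that guide PIWI proteins to transcripts of transposable elements and to other transcripts. A long precursor RNA is unwound by a helicase and cut at the surface of mitochondria, and the pieces are loaded onto PIWI proteins, which are held by Tudor domain proteins in granules next to the nucleus. In the mouse testis the pathway is known for transposon silencing in fetal germ cells and for a large burst of piRNAs in pachytene spermatocytes and round spermatids. It is chiefly a pathway of germ cells, while Sertoli cells are the somatic nurse cells of the seminiferous tubule. Loss of many of its genes is known to stop spermatogenesis and to leave males sterile.

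The day 7 table holds 4 libraries from cultured Sertoli cells of mice at 7 days after birth, 2 controls labelled WT, which the study's methods give as *Rnf20* Flox/Flox, and 2 labelled RNF20 conditional knockout, given as *Amh-Rnf20*-/-. In the knockout mice Cre recombinase is driven by the *Amh* promoter, which is active in Sertoli cells, so germ cells keep an intact *Rnf20*. The cultures had been passaged several times, and adherent cells were taken. The adult table holds 6 libraries of whole testis, 3 labelled WT and 3 labelled RNF20 conditional knockout, all untreated, and the study's text does not describe them. At day 7 the study's methods give 3 individuals a group, of which 2 libraries a group were analysed here. For adult testis no label ties the libraries to separate animals, so the p-values there measure the spread between these samples, which may be technical. Expression was measured by RNA-seq of oligo(dT)-enriched RNA, with 17477300 to 17705300 estimated counts a library at day 7 and 15431900 to 16574100 in adult testis. Levels are given as FPKM (fragments per kilobase scaled to library size), which is per length and so allows a comparison between genes.

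*Rnf20*, the targeted gene, which encodes an E3 ubiquitin ligase for histone H2B, was at 16.6 and 16.0 FPKM in the day 7 controls and at 10.3 and 12.6 FPKM in the day 7 knockouts. In adult testis it was at 4.89, 3.32 and 4.09 FPKM in the controls and at 9.16, 5.76 and 9.85 FPKM in the libraries labelled knockout. On this scale the targeted gene was lower in both day 7 knockouts and higher in all 3 adult libraries with that label. In adult testis its log2 fold change (log2FC) depended on the scaling between libraries: 0.12 with a standard error (SE) of 0.27 on TMM-scaled counts (adjusted p = 0.688, edgeR quasi-likelihood test), -0.075 with median-ratio scaling (adjusted p = 0.804) and 0.97 with total-count scaling, where it passed as higher (adjusted p = 0.0168). On TMM-scaled counts labelled knockout 2 was below all 3 controls, at 14.9 against 18.2 to 24.6 CPM (counts scaled to library size), and labelled knockouts 1 and 3 were above them. The study describes the knockout as disrupting the reading frame of the *Rnf20* mRNA. FPKM of the whole gene can still count such a transcript and does not show whether the gene was cut. The adult group is called labelled knockout after its label. Whole testis also holds germ cells and other cells in which this Cre is not active. Labelled knockout 1 stood apart from the other two: the summed level of 12 spermatocyte marker genes was 3.50 FPKM in it, against 146 and 227 FPKM in labelled knockouts 2 and 3 and 1743 to 1831 FPKM in the controls. The counts and log2 fold changes of the piRNA pathway genes in adult testis are given with and without that library.

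The promoters of the genes are shown as a description of their letters, and a part of these letters in the levels below was not tested. RefSeq promoter windows of 300 bases (250 before to 50 after an annotated transcript start, build GRCm38.p6) were found for 8 of the 10 genes, *Piwil2* and *Tdrd6* being the 2 without an entry. The letters CACGTG, the E-box bound by basic helix-loop-helix factors, which read the same on both strands, occurred in a window of 6 of the 8 genes, against 8.09% of the 27025 genes in the promoter table. Capitals mark these letters in the windows below. *Piwil1* (chr5:128735996-128736295, plus strand) and *Tdrd9* (chr12:111971309-111971608, plus strand) held a pair of matches each. *Mael* (chr1:166238695-166238994, minus strand) and *Ddx4* (chr13:112652261-112652560, minus strand) held 1 match each. *Asz1* (chr6:18109012-18109311, minus strand) and *Piwil4* (chr9:14740623-14740922, minus strand) held none. Each window is read 5′ to 3′ along its gene's strand.
*Piwil1*: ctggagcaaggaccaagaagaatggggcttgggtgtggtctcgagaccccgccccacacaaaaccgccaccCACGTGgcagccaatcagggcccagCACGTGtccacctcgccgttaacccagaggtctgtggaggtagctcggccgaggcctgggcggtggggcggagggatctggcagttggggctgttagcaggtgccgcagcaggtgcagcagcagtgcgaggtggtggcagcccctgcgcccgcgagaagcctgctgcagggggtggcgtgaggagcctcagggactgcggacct
*Tdrd9*: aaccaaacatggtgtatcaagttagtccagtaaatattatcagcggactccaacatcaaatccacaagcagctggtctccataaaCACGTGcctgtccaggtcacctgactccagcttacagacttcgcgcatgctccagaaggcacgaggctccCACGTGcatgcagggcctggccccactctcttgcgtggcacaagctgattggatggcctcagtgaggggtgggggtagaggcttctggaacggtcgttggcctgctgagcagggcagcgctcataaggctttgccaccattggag
*Mael*: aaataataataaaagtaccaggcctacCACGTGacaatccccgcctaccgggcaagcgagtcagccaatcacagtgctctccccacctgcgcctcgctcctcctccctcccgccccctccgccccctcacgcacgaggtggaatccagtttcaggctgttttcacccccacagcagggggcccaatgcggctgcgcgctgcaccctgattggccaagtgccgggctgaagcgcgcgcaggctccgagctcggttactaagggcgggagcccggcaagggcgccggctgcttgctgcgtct
*Ddx4*: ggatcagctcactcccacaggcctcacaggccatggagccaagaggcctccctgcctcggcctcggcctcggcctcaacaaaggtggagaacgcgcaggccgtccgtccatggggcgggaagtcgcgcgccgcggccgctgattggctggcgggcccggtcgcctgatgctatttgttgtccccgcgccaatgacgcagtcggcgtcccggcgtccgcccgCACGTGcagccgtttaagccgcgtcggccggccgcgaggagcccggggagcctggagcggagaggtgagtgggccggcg
*Asz1*: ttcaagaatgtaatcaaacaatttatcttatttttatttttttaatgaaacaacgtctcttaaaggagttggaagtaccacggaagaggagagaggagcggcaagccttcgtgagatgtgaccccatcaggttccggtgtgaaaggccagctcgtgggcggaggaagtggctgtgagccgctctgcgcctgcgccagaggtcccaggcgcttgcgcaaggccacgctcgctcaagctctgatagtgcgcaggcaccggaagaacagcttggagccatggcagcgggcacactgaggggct
*Piwil4*: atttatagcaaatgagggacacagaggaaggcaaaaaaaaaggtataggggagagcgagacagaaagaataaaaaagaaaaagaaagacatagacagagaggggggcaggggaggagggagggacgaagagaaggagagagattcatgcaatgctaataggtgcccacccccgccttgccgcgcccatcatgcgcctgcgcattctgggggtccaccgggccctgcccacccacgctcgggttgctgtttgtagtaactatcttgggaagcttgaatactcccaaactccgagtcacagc

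The matches began 154 and 179 bases before the start in *Piwil1*, 95 and 165 in *Tdrd9*, 223 in *Mael*, 29 in *Ddx4* and 246 in *Mov10l1*. The match of *Tdrd1* was 1 site, 11 and 77 bases before 2 neighbouring annotated starts, and the window of the third start of that gene held none. The second annotated start of *Piwil4* also had no match. The letters TCCCGC, an E2F site, occurred on either strand in the windows of 2 of the 8 genes, *Ddx4* and *Mael*, against 22.1% of all genes. The letters AACNG, the core of a MYB site, were found on either strand in all 8, against 82.4% of all genes, and none of the CACGTG matches shared a base with either motif. The windows had a GC content of 45.0% to 72.0%, with a median of 52.7% over all windows of the table. A match is a description of the letters in this window and does not show that a factor binds there.

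**Figure D1:**
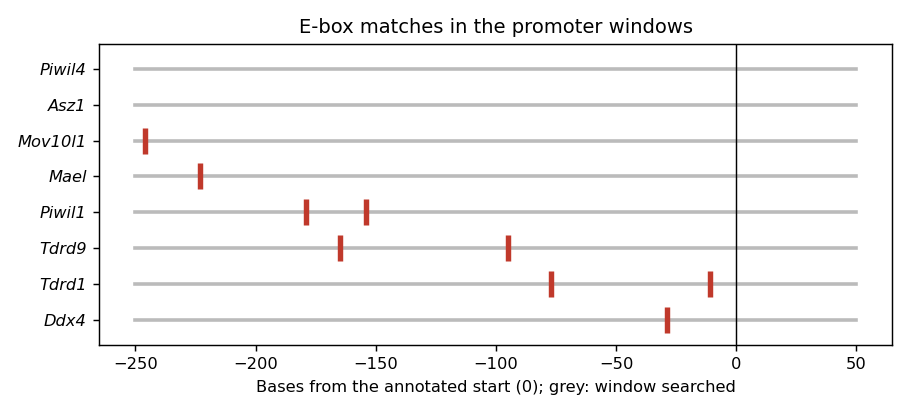
Positions of the letters CACGTG in the promoter windows of the 8 genes with a RefSeq entry, in bases from the annotated start (x axis); each grey line is the window searched and each red bar 1 match, with the site of *Tdrd1* drawn at its distance from both neighbouring starts. The matches lay between 246 and 11 bases before the start, and the lines of *Asz1* and *Piwil4* are empty.

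In adult testis, 9 of the 10 genes were lower in every labelled knockout library than in every control library, and *Piwil4* was higher in every one. In the controls the levels spanned a wide range. *Mael* had the highest mean, 1257 ± 34.4 FPKM (SD, n = 3), followed by *Ddx4* at 184 ± 14.95, *Piwil1* at 76.5 ± 5.09 and *Tdrd6* at 55.8 ± 6.95 FPKM. *Tdrd1*, *Tdrd9*, *Piwil2*, *Mov10l1* and *Asz1* followed between 24.1 and 13.9 FPKM, and *Piwil4* was last with 0.18 ± 0.18 FPKM. In this order the ranges of *Tdrd1* and *Tdrd9* overlapped, as did those of *Piwil2* and *Mov10l1*, and no other neighbours did. In the labelled knockouts every range overlapped the next down to *Asz1*, with labelled knockout 1 under 1 FPKM for 9 genes. In whole tissue, fewer germ cells and less RNA per cell cannot be told apart.

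**Figure D2:**
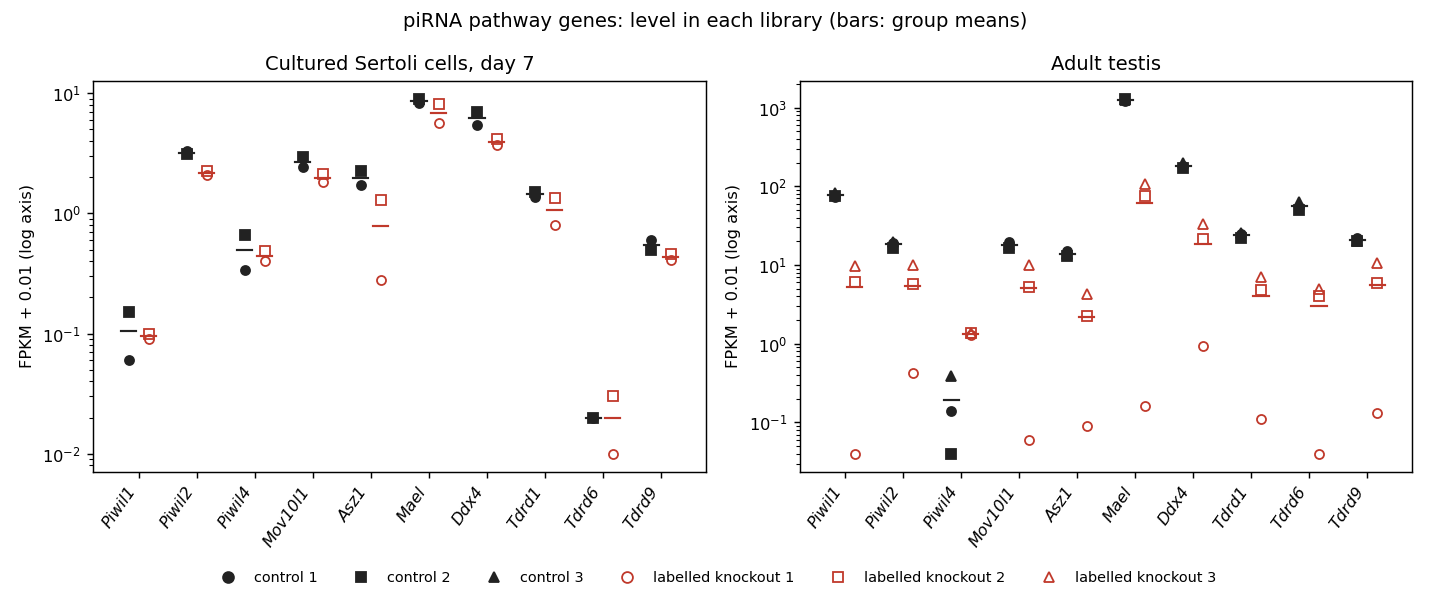
Level of each piRNA pathway gene in each library, as FPKM + 0.01 on a log axis, in cultured Sertoli cells at day 7 (left) and adult testis (right); filled symbols are controls, open symbols labelled knockouts, and bars group means. In adult testis the open symbols lie below the filled ones for 9 genes and above them for *Piwil4*, while at day 7 the groups lie close together.

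Of the genes for PIWI proteins, *Piwil1* and *Piwil2* were lower in the labelled knockouts and *Piwil4* higher. *Piwil1* (MIWI), the PIWI protein of pachytene spermatocytes and round spermatids, was at 72.9, 74.3 and 82.3 FPKM in the controls and at 0.03, 6.04 and 9.71 FPKM in labelled knockouts 1, 2 and 3. The highest labelled knockout was thus far under the lowest control, and the log2FC was -4.77 (SE 1.45) with an adjusted p of 0.0211, which came from edgeR, as do the adjusted p-values below where no other test is named. *Piwil2* (MILI), which is made from fetal germ cells to round spermatids, was at 19.13, 16.6 and 19.6 FPKM in the controls and at 0.42, 5.72 and 9.99 FPKM in the labelled knockouts. The groups did not overlap, and *Piwil2* fell by 2.67 on the log2 scale (SE 0.92, adjusted p = 0.0337), a smaller value than that of *Piwil1*.

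*Piwil4* (MIWI2), the nuclear PIWI protein of fetal prospermatogonia, was at 0.13, 0.03 and 0.38 FPKM in the controls and at 1.29, 1.34 and 1.35 FPKM in the labelled knockouts. The 3 labelled knockouts lay within 0.06 FPKM of each other, and labelled knockout 1, which was lowest for the other 9 genes by a wide margin, did not stand apart here. The estimated counts behind these levels were 5, 1 and 11 for the controls, against 35, 46 and 38 for the labelled knockouts. *Piwil4* was thus a low gene in all 6 libraries and passed the filter on low values only through the labelled knockouts. Its fitted log2FC of 1.99 (SE 0.63) is therefore given as a description, with no call.

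The genes for precursor processing and for the granule were lower in the labelled knockouts. *Mov10l1*, the helicase that unwinds piRNA precursors, was at 19.9, 16.5 and 17.8 FPKM in the controls and at 0.05, 5.31 and 10.1 FPKM in the labelled knockouts. Its groups did not overlap, but its log2FC of -2.70 (SE 1.23) did not pass the test (adjusted p = 0.0818), unlike those of the other lower genes. *Asz1* (GASZ), a scaffold of the mitochondrial surface where precursors are cut, was at 14.9, 12.9 and 13.8 FPKM against 0.08, 2.21 and 4.31 FPKM, with no overlap and a log2FC of -3.53 (SE 0.92, adjusted p = 0.0117). This was the smallest adjusted p of the 9 lower genes.

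*Mael* (maelstrom), a granule protein needed for transposon silencing and for pachytene piRNAs, was at 1225, 1293 and 1251 FPKM in the controls and at 0.15, 74.8 and 106.5 FPKM in the labelled knockouts. It had the largest log2FC of the 10, -5.28 (SE 1.76, adjusted p = 0.0302). *Ddx4* (VASA), the DEAD-box RNA helicase that marks germ cells of most stages, was at 183, 169 and 199 FPKM against 0.93, 21.4 and 33.6 FPKM, with a log2FC of -4.20 (SE 1.13, adjusted p = 0.0130). In both genes the groups lay far apart, and labelled knockout 1 was the lowest library.

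The Tudor domain proteins bind methylated arginines of PIWI proteins and build the granules. *Tdrd6*, a component of the chromatoid body of spermatids, was at 53.8, 50.1 and 63.5 FPKM in the controls and at 0.03, 4.05 and 4.93 FPKM in the labelled knockouts. It fell by 5.13 on the log2 scale (SE 1.41, adjusted p = 0.0143), about as far as *Mael*. *Tdrd1*, a partner of MILI in the granules between mitochondria, was at 24.9, 21.8 and 25.5 FPKM against 0.10, 4.76 and 7.08 FPKM and fell by 3.50 (SE 1.16, adjusted p = 0.0293). *Tdrd9*, a helicase with a Tudor domain that partners MIWI2 in prospermatogonia, was at 22.2, 20.05 and 20.4 FPKM against 0.12, 5.94 and 10.6 FPKM. Its groups did not overlap, and its log2FC of -2.99 (SE 1.16) had an adjusted p of 0.0498.

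*Piwil4* is left out of the counts that follow. At an adjusted p under 0.05, 8 of the other 9 genes were lower in the labelled knockouts, where 40.6% of the 15919 genes tested were lower. The groups did not overlap, with the labelled knockouts below, in all 9, against 43.1% of all genes. Past both thresholds of the study (an absolute log2FC over 1 and an adjusted p under 0.001) there were 0 of 9, against 23.7% of all genes that were lower. At an unadjusted p under 0.05 there were 8 of 9, against 41.1% lower. Past both thresholds DESeq2 put 6 of 9, against 35.5% lower, and limma on log2(FPKM + 0.1) put 0, against 15.5% lower. The median log2FC of the 9 genes was -3.53, beside 0.01 over all genes tested. Without labelled knockout 1, all 9 passed both thresholds as lower, against 31% of 16360 genes, and all 9 had an adjusted p under 0.05, against 41.1% lower. Leaving out any 1 of the other 5 libraries left 3 or 4 of the 9 genes with an adjusted p under 0.05, where 37.3% to 38.1% of all genes were lower. Past both thresholds these fits put 0 of the 9, against 9.65% to 11.8% lower.

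Leaving out labelled knockout 1 made the log2 fold changes of these 9 genes smaller and their errors much smaller. *Mael* then had -4.57 (SE 0.19, adjusted p = 8.2e-08), *Tdrd6* -4.43 and *Piwil1* -4.07. At the other end *Mov10l1* had -2.01 (SE 0.22, adjusted p = 3.26e-05), *Piwil2* -2.005 and *Tdrd9* -2.30, and between them *Ddx4* had -3.53, *Asz1* -2.85 and *Tdrd1* -2.80. The fitted value of *Piwil4* without that library was 2.17 (SE 0.61). The direction of the other 9 genes was the same with total-count and median-ratio scaling, which put the median of all genes at 0.87 and -0.19. With total-count scaling *Mov10l1*, *Piwil2*, *Tdrd1* and *Tdrd9* had an adjusted p over 0.05, which left 5 of 9, against 30% of all genes that were lower.

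**Figure D3:**
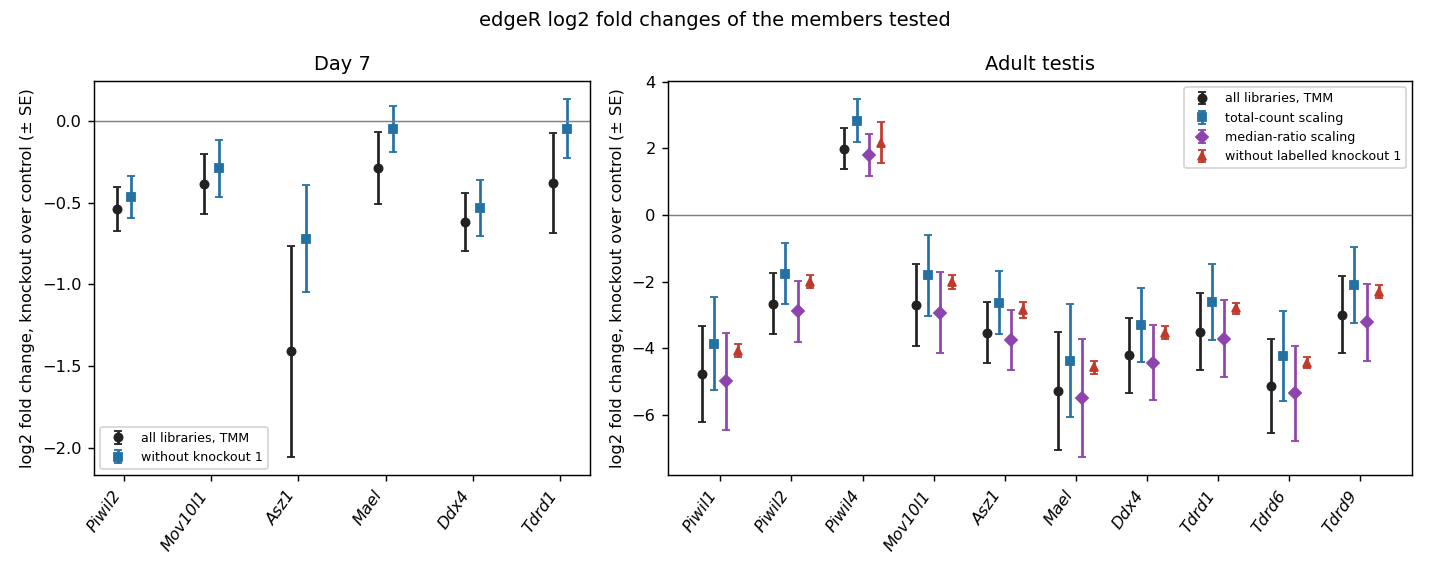
Log2 fold changes from edgeR (labelled knockout over control) with SE bars for the genes tested, at day 7 (left, with and without knockout 1, TMM scaling) and in adult testis (right, by scaling and without labelled knockout 1). In adult testis 9 genes lie below 0 and *Piwil4* above 0 in every series of points, and the bars of the 9 are short without labelled knockout 1, while at day 7 the 6 genes tested lie between -1.41 and -0.29 with all libraries.

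What was left of each transcript differed between the genes. Counts were set against the control mean at equal total count, with 95% Poisson intervals, which cover counting error only. TMM scaling, used for the fits, lowers these shares: *Piwil2* in labelled knockout 3, for example, was at 54.5% by total count and at 28.6% by TMM-scaled counts. In labelled knockout 2, *Mael* was at 5.94% of the controls (5.65% to 6.24%), *Tdrd6* at 7.10%, *Piwil1* at 7.85% and *Ddx4* at 11.5%. *Asz1* was at 16.1%, *Tdrd1* at 19.8%, *Tdrd9* at 24.9%, *Mov10l1* at 29.5% and *Piwil2* at 31.2% (28.3% to 34.2%). Labelled knockout 3 held more of each of these 9 transcripts, from 8.49% for *Mael* and 8.75% for *Tdrd6* over 12.7% for *Piwil1* and 18.3% for *Ddx4* to 54.5% for *Piwil2* and 56.2% for *Mov10l1*. The order was the same in both libraries but for the pairs *Asz1* and *Tdrd1*, and *Mov10l1* and *Piwil2*, whose intervals overlapped in both.

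*Mael* and the late spermatocyte and spermatid genes *Tdrd6* and *Piwil1* thus kept the least in labelled knockouts 2 and 3, and *Piwil2*, *Mov10l1* and *Tdrd9* kept the most. In labelled knockout 1 the same 9 genes were between 0.0116% for *Mael* (3 counts, interval 0.00240% to 0.0340%) and 2.40% for *Piwil2* (33 counts, interval 1.65% to 3.37%). *Ddx4* had 40 counts there, 0.518% of the controls, and the other genes 2 to 7 counts. There *Mov10l1* at 0.269% and *Tdrd9* at 0.509% were not among those that kept the most, *Asz1* being at 0.618%, and all of these rest on 7 counts or fewer. *Piwil4* was at 634%, 818% and 710% of the controls in labelled knockouts 1, 2 and 3, with intervals from 442% to 1092% over the 3 libraries that leave out the error of the 1 to 11 counts in the controls. By TMM-scaled counts it was at 377%, 459% and 379%, and the other 9 genes were at 0.00677% to 1.40%, 3.27% to 17.2% and 4.45% to 29.5% in labelled knockouts 1, 2 and 3.

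**Figure D4:**
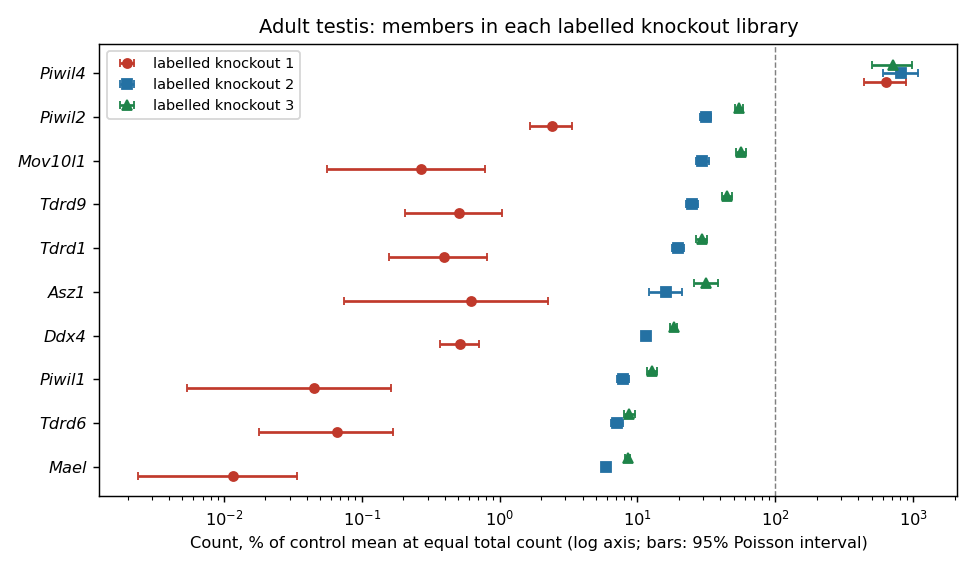
Count of each gene in labelled knockouts 1, 2 and 3 as a percentage of the control mean at equal total count (x axis, log scale), with 95% Poisson intervals as bars; the dashed line marks 100%. Points of labelled knockouts 2 and 3 run from 5.94% and 8.49% for *Mael* up to more than 50% for *Piwil2* and *Mov10l1* in labelled knockout 3, those of labelled knockout 1 stay at or under 2.40% for the same genes, and *Piwil4* lies right of the line.

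The level of each gene relative to *Ddx4* was compared next, since a ratio within a library depends on the scaling between libraries only through the pseudocount, and *Ddx4* is made by germ cells of most stages. The log2 ratio of *Mael* to *Ddx4* was 2.78 ± 0.14 (SD, n = 3) in the controls and -2.04, 1.80 and 1.66 in the labelled knockouts. *Piwil1* was at -1.26 ± 0.069 in the controls and at -2.99, -1.81 and -1.78, and *Tdrd6* at -1.72 ± 0.065 and at -2.99, -2.37 and -2.74. On this scale, log2(FPKM + 0.1), these 3 genes were lower relative to *Ddx4* in every labelled knockout, with mean differences of -2.30, -0.93 and -0.98. Of the 15918 other genes tested, 5.25% were lower relative to *Ddx4* in every labelled knockout than in every control. *Piwil1* and *Tdrd6* both had 0.03 FPKM in labelled knockout 1, so the pseudocount sets their value there. With a pseudocount of 1 the differences of *Piwil1* and *Tdrd6* shrank to -0.17 and -0.16, while *Mael* had -1.89.

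The other 6 genes were higher relative to *Ddx4* in every labelled knockout on the same scale, as were 82.4% of all genes, *Ddx4* itself having a log2FC of -4.20. *Piwil2* was at -3.31 ± 0.054 in the controls and at -0.99, -1.88 and -1.74 in the labelled knockouts, a difference of 1.77. The differences were 1.22 for *Tdrd9*, 1.18 for *Mov10l1*, 0.83 for *Asz1* and 0.68 for *Tdrd1*, and 6.89 for *Piwil4*. Without labelled knockout 1 they were 1.498, 1.39, 1.48, 0.64, 0.74 and 5.34, and those of *Mael*, *Piwil1* and *Tdrd6* were -1.05, -0.53 and -0.84. For *Mov10l1* and *Tdrd1* this rested on the pseudocount in labelled knockout 1, where their counts were 0.269% and 0.392% of the controls and those of *Ddx4* 0.518%. *Tdrd9* was also no higher than *Ddx4* there by counts, at 0.509%. With a pseudocount of 0.01 the differences of *Mov10l1* and *Tdrd1* were 0.78 and 0.43, and that of *Tdrd9* was 1.01. The value of *Piwil4* is a description, as above. Each of the other 8 ratios had p = 0.1 in a two-sided exact permutation test, the smallest that 3 samples against 3 allow, and an adjusted p of 0.2 over the 18 ratios of both tables, so none passed. With the other pseudocounts p was 0.5 for *Piwil1* and 0.8 for *Tdrd6* at 1, and 0.4 for *Mov10l1* and for *Tdrd1* at 0.01, in the same exact test.

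**Figure D5:**
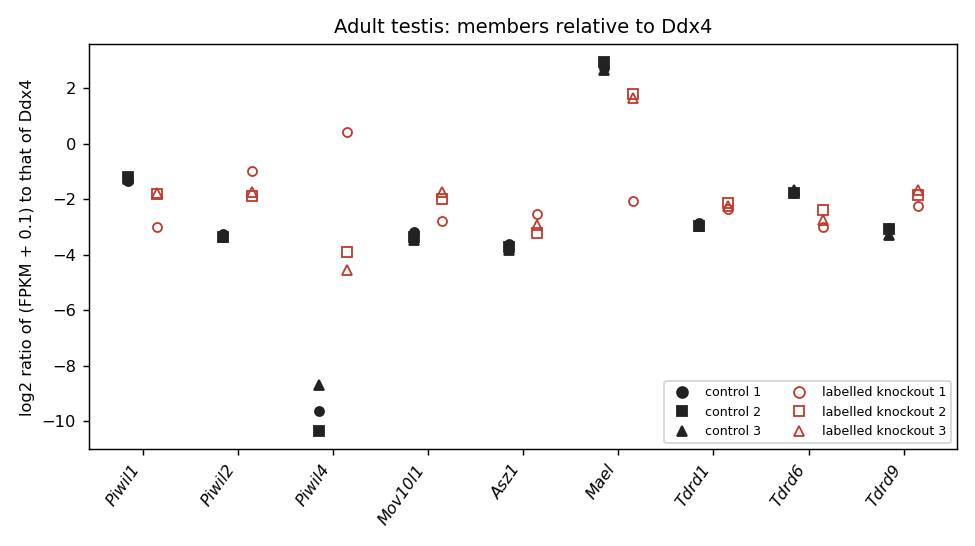
Log2 ratio of (FPKM + 0.1) of each gene to that of *Ddx4* in each adult testis library; filled symbols are controls and open symbols labelled knockouts. *Mael*, *Piwil1* and *Tdrd6* lie lower in the labelled knockouts and the other 6 genes higher, with no overlap between the groups in these genes at this pseudocount, beside 5.25% of all genes that lay lower without overlap and 82.4% that lay higher.

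Markers of germ cell stages and of somatic cells moved with these results, and their part in them was not tested. Over 12 spermatid genes the summed level was 129262 to 198470 FPKM in the controls and 4.45, 122 and 75.9 FPKM in labelled knockouts 1, 2 and 3. Over 14 spermatogonial genes it was 113 to 131 FPKM in the controls and 61.1, 308 and 437 FPKM, so that labelled knockouts 2 and 3 were above the controls and labelled knockout 1 below. The sum does not stand for its members. Of the 12 spermatogonial genes tested, 8 had a log2FC below 0 and the median was -0.98 (7 and -0.31 without labelled knockout 1). The values ran from -2.83 to 3.51, with *Kit* and *Zbtb16*, named after their values were seen, at 3.51 and 2.22. At an adjusted p under 0.05 (edgeR) 4 were lower and 3 higher. Of all genes, 40.6% were lower and 81.5% passed in either direction. In labelled knockout 1 4 of the 14 spermatogonial genes, 3 of the 12 spermatocyte genes and 3 of the 12 spermatid genes were listed at 0. The Sertoli, Leydig and macrophage sums were higher in all 3 labelled knockouts: 16 Sertoli cell genes at 2997 to 6773 against 710 to 886 FPKM, 7 Leydig cell genes at 63494 to 88130 against 4019 to 5618 FPKM, and 8 macrophage genes at 1781 to 2842 against 69.6 to 80.3 FPKM. Of the 15 Sertoli cell genes tested, 14 had a log2FC above 0 and 1 had -5.57, while all 7 Leydig cell and all 8 macrophage genes were above 0. Of the 15919 genes tested, 7931 were below 0. The sum of the 7 peritubular myoid cell genes, 240 to 451 against 299 to 372 FPKM, overlapped, although 6 of the 7 had a log2FC above 0 (5 with an adjusted p under 0.05) and *Actg2*, named after its value was seen, had -7.73. As shares of the control mean, labelled knockouts 2 and 3 held 7.89% and 11.9% of the summed level of the 10 piRNA genes, 75.3% of which was *Mael* in the controls, and 8.25% and 12.8% of that of the spermatocyte genes. For the other piRNA pathway genes described next these shares were 13.4% and 18.9%.

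A list of 24 other piRNA pathway genes was examined in the same fit, of which 23 were in both tables, *Dnmt3c* being absent from each. In adult testis all 23 were tested and had a log2FC below 0, 16 of them with an adjusted p under 0.05 (40.6% of all genes were lower at that threshold), and the median was -2.65. With total-count scaling 20 of the 23 were below 0, 10 were lower and 2 higher at an adjusted p under 0.05 (30% of all genes were lower), and the median was -1.76. Without labelled knockout 1, 22 were below 0, 20 of them at an adjusted p under 0.05, against 41.1% of all genes, and the median was -2.03. Past both thresholds were 3 of the 23, against 23.7% of all genes that were lower, and 15 without labelled knockout 1, against 31%. The largest falls were those of *Gtsf1*, *Tdrd5*, *Rnf17* and *Henmt1*.

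*Gtsf1*, a zinc finger partner of PIWI proteins, was at 900, 997 and 830 FPKM in the controls and at 0, 28.6 and 35.5 FPKM in the labelled knockouts, with a fitted log2FC of -6.31 (SE 1.62, adjusted p = 0.0109). *Tdrd5* and *Rnf17*, which encode Tudor domain proteins of germ cell granules, had log2 fold changes of -4.39 and -4.38, with adjusted p-values of 0.0151 and 0.00792. *Henmt1*, the methyltransferase that protects the 3′ end of piRNAs, was at 12.7, 13.5 and 14.3 against 0.07, 1.66 and 2.24 FPKM and fell by 4.25 (adjusted p = 0.00364). Without labelled knockout 1 these 4 genes had -5.61, -3.69, -3.70 and -3.58. Of the 4 genes at the other end of the list, 3 turned with total-count scaling and *Tex19.2* did not. *Prmt5*, the enzyme that methylates PIWI arginines and is also used by somatic cells, had a log2FC of -0.06 (adjusted p = 0.787) on TMM-scaled counts and 0.78 (adjusted p = 0.0163) with total-count scaling, its FPKM being 16.3 to 19.9 in the labelled knockouts and 8.35 to 14.2 in the controls. *Morc1* and *Tex19.2* had -0.61 and -1.19 (adjusted p = 0.642 and 0.307), and with total-count scaling 0.29 and -0.29 (adjusted p = 0.828 and 0.800). Without labelled knockout 1 *Morc1* had 0.096 and *Tex19.2* -0.50. *Wdr77*, the partner of PRMT5, had -0.37 (adjusted p = 0.0325), although its FPKM of 14.1 to 18.4 in the labelled knockouts was above the 10.9 to 11.7 FPKM of the controls, and with total-count scaling it had 0.49 (adjusted p = 0.0151).

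Across the 6 adult libraries, the log2(FPKM + 0.1) profiles of 9 of the genes had a Pearson correlation of at least 0.980 with the mean of the other members, and *Piwil4* had -0.683. The genes outside the list with the most similar profiles were *Sycp2*, *Cers3*, *Rbm44*, *Pbk* and *Fbn2*, with correlations of 0.99991, 0.99983, 0.99980, 0.99977 and 0.99964 among 15909 genes compared. *Sycp2*, a protein of the synaptonemal complex of meiosis, was at 58.95, 49.1 and 61.8 FPKM in the controls and at 0.06, 8.39 and 14.6 FPKM in the labelled knockouts. In all, 957 genes had a correlation over 0.95. The points of a correlation share the same 6 libraries in 2 groups, so these values describe the split of the libraries and carry no p-value. They were computed over all 6 libraries and not without labelled knockout 1.

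In the cultured Sertoli cells of day 7 the piRNA pathway genes were low, and none passed the test. The label was checked against marker genes first. The 16 Sertoli cell genes summed to 1918 and 1752 FPKM in the controls and to 994 and 1432 FPKM in knockouts 1 and 2. Of these 16 genes, 12 had a log2FC below 0 and 4 above, where 6537 of all 12880 genes tested were below 0. Germ cell transcripts were present too, the 14 spermatogonial genes summing to 225 and 218 FPKM in the controls and to 155.3 and 154.9 FPKM in the knockouts, while 7 peritubular myoid cell genes summed to 2090 and 1969 FPKM against 3645 and 3694 FPKM. The 7 Leydig cell genes summed to 156 and 161 FPKM against 302 and 214 FPKM, with 4 of the 5 tested above 0. The 8 macrophage genes summed to 28.0 to 55.1 FPKM over the 4 libraries, while the spermatocyte and spermatid lists, of which 11 and 6 genes were in the table, stayed at 0.83 to 10.6 FPKM. The libraries thus held transcripts listed as markers of Sertoli, germ, peritubular and Leydig cells, and which cells made them was not tested. With all 4 libraries 0 genes of these lists had an adjusted p under 0.05 (edgeR), and at an unadjusted p under 0.05 there were 3 of 16 Sertoli, 6 of 14 spermatogonial, 7 of 7 peritubular and 3 of 5 Leydig cell genes, against 15.5% of all genes. The Sertoli and spermatogonial sums were lower in both knockouts and the peritubular and Leydig sums higher, and the part of these differences in the values below was not tested.

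*Mael*, *Ddx4*, *Piwil2*, *Mov10l1*, *Asz1* and *Tdrd1* were tested at day 7, and *Tdrd9*, *Piwil4*, *Piwil1* and *Tdrd6* were below the filter of 0.5 FPKM in 2 samples or more. *Mael* was at 8.24 and 8.99 FPKM in the controls and at 5.61 and 8.13 FPKM in the knockouts. *Ddx4* was at 5.48 and 6.93 against 3.70 and 4.12 FPKM, and *Piwil2* at 3.28 and 3.13 against 2.06 and 2.26 FPKM. *Ddx4* and *Piwil2* were lower in both knockouts than in either control, and *Mael* reached 94.4% of its control mean in knockout 2. *Ddx4* had a log2FC of -0.62 (SE 0.18, adjusted p = 0.247) and *Piwil2* one of -0.54 (SE 0.13, adjusted p = 0.218), close to the -0.49 (SE 0.12, adjusted p = 0.222) of the targeted gene *Rnf20*.

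*Asz1* was at 1.71 and 2.23 FPKM in the day 7 controls and at 0.27 and 1.29 FPKM in the knockouts. Its value of -1.41 was the largest of the 6 (SE 0.65, adjusted p = 0.386) and rested on knockout 1, which had 7 counts, 13.9% of the control level (interval 5.60% to 28.7%), where knockout 2 had 30 counts, 58.9% (interval 39.7% to 84.1%). Without knockout 1 the log2FC of *Asz1* was -0.72 (adjusted p = 0.166), and without knockout 2 it was -2.79 (adjusted p = 0.00586). *Mov10l1* was at 2.42 and 2.92 against 1.81 and 2.10 FPKM, with a log2FC of -0.39 (adjusted p = 0.393), and its groups did not overlap. *Tdrd1*, at 1.35 and 1.51 against 0.79 and 1.34 FPKM, had -0.38 (adjusted p = 0.603), and *Mael* had -0.29 (adjusted p = 0.585). Both also rested on knockout 1: without it they had -0.048 each, and without knockout 2 -0.81 and -0.58.

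*Mov10l1*, *Asz1*, *Tdrd1* and *Piwil1* belong to a list that the study chose on the day 7 RNA-seq values, so their direction at day 7 is not independent evidence. Of the low genes, *Tdrd9* was at 0.59 and 0.49 against 0.40 and 0.45 FPKM, with both knockouts just below the controls. *Piwil4* was at 0.33 and 0.65 against 0.39 and 0.48 FPKM, and *Piwil1* at 0.05 and 0.14 against 0.08 and 0.09 FPKM, so both overlapped. *Tdrd6* was at 0.02 FPKM or less in all 4 libraries. *Piwil1* and *Tdrd6*, the genes of late germ cells, were thus near 0 in these cultures, while *Piwil4* was within 0.33 to 0.65 FPKM.

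At an adjusted p under 0.05 there were 0 of 6 genes at day 7, against 0% of the 12880 genes tested, and DESeq2 and limma also gave 0 of the 6, against 4.51% and 0% of all genes. At an unadjusted p under 0.05 there were 2 of 6, *Ddx4* and *Piwil2*, both lower, against 15.5% of all genes in either direction and 6.99% lower. On scaled counts 4 of the 6, *Ddx4*, *Piwil2*, *Mov10l1* and *Asz1*, were lower in both knockouts than in both controls, against 26.1% of all genes. *Mov10l1*, *Asz1* and *Tdrd1* come from the list that the study chose on these values. Neither this count nor the median over the 6 genes is therefore independent evidence. The median log2FC was -0.46, beside -0.004 over all genes. This median was -0.30 without knockout 1 and -0.60 without knockout 2, over the 8 genes tested in each of these fits. Without knockout 1, *Piwil2* alone of 8 genes had an adjusted p under 0.05, at 0.0417 with a log2FC of -0.47, where 11% of all genes were lower. Without knockout 2, 5 of 8 genes did, all lower, against 17.5% of all genes. In both fits 1 knockout is left, the spread comes from the 2 controls alone, and the lone library is assumed to vary like them. The log2 ratios to *Ddx4* had p-values of 0.333 or more in the exact permutation test, and 0.333 is the smallest that 2 samples against 2 allow.

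Of the other piRNA pathway genes 20 were tested at day 7, of which 15 were below 0 and 0 had an adjusted p under 0.05, with 1 at an unadjusted p under 0.05, against 0% and 15.5% of all genes. That was *Stk31*, a Tudor domain protein with a kinase-like domain, at 1.60 and 1.31 FPKM in the controls and 0.65 and 0.99 FPKM in the knockouts (log2FC -0.84, adjusted p = 0.307). *Tdrkh*, a mitochondrial Tudor protein that recruits PIWI proteins, came next, at 7.67 and 8.12 against 6.16 and 5.88 FPKM (log2FC -0.31, adjusted p = 0.385). In both genes the knockouts lay below the controls. The median over the 20 genes was -0.34, and without knockout 1 it was -0.11 over the 22 genes then tested.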

How the data were processed

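RNA-seq values of 4 day 7 and 6 adult libraries were used. The authors used HISAT for the genome (GRCm38.p6), Bowtie2 for the reference genes and RSEM for FPKM. Their versions, and whether strand was used, are not given in the sources used here. The deposited columns hold estimated counts, not normalized, FPKM per length and library size, and TPM, which the authors also deposited and which was not used here. The adult table also has 20 columns without any value. Estimated counts were rounded and tested per table with edgeR 4.0.16 (quasi-likelihood, TMM, Benjamini-Hochberg over all genes tested, R 4.3.3) for genes with at least 0.5 FPKM in as many samples as the smaller group. TMM factors were 0.984 to 1.02 at day 7, and 0.710 to 0.761 in adult controls against 1.27 to 1.42 in labelled knockouts. DESeq2 1.42.0, limma 3.58.1, other scalings, filters, pseudocounts, a replicate block and each sample left out were alternatives. The tests were tried on simulated data, with no outcome given here. The standard error is the log2 fold change over the root of F. Groups come from the labels, which give WT and knockout. All samples carry adult tissue as growth protocol, and the day in the titles was used.

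The 10 genes and the gene lists were chosen with earlier results of these data known. Named genes were the 10, *Rnf20*, the 4 highest and 4 lowest fold changes of the other piRNA genes in adult testis, the 2 smallest p at day 7, and the 5 profiles most like that of the members. Outside this rule, *Kit*, *Zbtb16* and *Actg2* were named after their values were seen, and *Dnmt3c* because it was absent. Ratios used log2(FPKM + 0.1). FPKM rests on RSEM's isoform lengths. Protein sequences were not analysed here. Gene names and promoters are from RefSeq.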

Additional observations from a re-analysis of the deposited data

How the results depend on the processing

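The adult direction of the 9 lower genes was the same under every alternative run. *Piwil4* was higher in each run that included it, which rests on the same few control counts and remains a description. It was not tested with a mean FPKM of at least 1. The counts of calls over the other 9 genes were not the same. Past both thresholds, 0 adult genes, against 23.7% of all genes that were lower, became 6 with DESeq2, against 35.5%. With an adjusted p under 0.05 as the rule there were 8, against 40.6% lower at that adjusted p. Leaving out a replicate gave 9 without labelled knockout 1, against 31% lower, and 0 without any other library, against 9.65% to 11.8%. At an adjusted p under 0.05, 8 adult genes became 5 with total-count scaling and 4 with limma on log2(FPKM + 0.01), where 30.0% and 29.9% of all genes were lower. On leaving out a replicate there were 3 to 9: 9 without labelled knockout 1, against 41.1% of all genes that were lower, and 3 or 4 without any other library, against 37.3% to 38.1%. At day 7, 0 genes became 0 to 5, with 1 without knockout 1 and 5 without knockout 2 (11% and 17.5% of all genes were lower), where the spread comes from the controls alone. *Rnf20* in adult testis turned to -0.075 with median-ratio scaling and with DESeq2. On leaving out a replicate the day 7 log2 ratios to *Ddx4* ran from -0.10 to 0.30 for *Piwil2*, -1.75 to 0.0066 for *Asz1* and -0.059 to 0.48 for *Tdrd1*, and so turned. The cause of these shifts was not tested, except that fewer samples enter.

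With the replicate block, 3 of the 9 adult genes had an adjusted p under 0.05, against 38.6% of all genes that were lower. Past both thresholds there were 0, as over all genes, and at day 7 there were 0 by either rule, also as over all genes. Same-numbered samples had deviations correlated at 0.032 at day 7 and at 0.0062 to 0.027 in adult testis, so the numbers were not taken as pairs. With total-count scaling 5836 adult genes were called higher and 2252 lower, against 3660 and 3772. Depth limits *Piwil4* in the adult controls and *Asz1*, *Piwil1*, *Piwil4*, *Tdrd6* and *Tdrd9* at day 7. In labelled knockout 1 it limits all but *Ddx4*, *Piwil2* and *Piwil4*.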
